A study of Mus musculus with 6 samples.

Results

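The esBAF complex is the form of the mammalian SWI/SNF chromatin remodeller found in embryonic stem (ES) cells. Its subunits were taken as 10 genes: Smarca4, Smarcc1, Smarcc2, Smarcd1, Smarcd2, Smarcd3, Smarce1, Smarcb1, Arid1a and Dpf2. Every probe set whose platform annotation gives 1 of these symbols alone was used, which gave 12 probe sets for the 10 genes, among 35557 probe sets and 19938 genes with 1 symbol in the table. All 12 passed the filter on low values. Smarcd2 and Smarce1 lie on chromosome 11 and the other 8 genes on chromosomes 4, 5, 9, 10, 15 and 19 (assembly GRCm38.p6).

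The study measured total RNA of undifferentiated mouse ES cells on 6 Mouse Gene 1.0 ST arrays. The labels assign 3 arrays to the parental line w9.5, whose genotype is WT, and 3 to the line Cl34, whose genotype is Hira-/- (called Hira-null here). HIRA is a chaperone that places the histone variant H3.3 into chromatin outside DNA replication, and the comparison asks how expression differs in its absence. Both lines were grown in the same medium, with ES cell qualified serum and ESGRO, the supplement that supplies leukaemia inhibitory factor. Cl34 is 1 line, so effects of Hira loss and other differences between the lines cannot be told apart. Cultures were collected at several degrees of confluence that no label ties to an array, and the titles number the 3 arrays of each line as biological replicates without saying what was kept separate. The p-values measure the spread among these arrays, which may in part be technical.

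The BAF complex uses the energy of ATP to slide and eject nucleosomes, which opens regulatory DNA to transcription factors. It has a single ATPase, a core of scaffold subunits, and exchangeable subunits drawn from small families, so that each cell type assembles its own version. The ES cell version is known to be built on Smarca4 with Smarcc1, Arid1a and Smarcd1, to work beside Oct4, Sox2 and Nanog, and to be needed for self-renewal. Smarcc2 and Smarcd3 are better known from the versions of differentiated cells such as neurons and heart muscle.

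Values are the deposited log2 values of 1 probe set, or differences of such values, Hira-null minus WT. They were compared with limma over 25142 probe sets with Benjamini-Hochberg adjustment, and SD are over n = 3 arrays. Array medians ran from 4.93 to 5.02. Levels of different probe sets are not compared, since each has its own probes. The Hira probe set read 7.49, 7.86 and 7.83 on the WT arrays against 7.40, 7.05 and 6.81 on the Hira-null arrays, a difference of -0.64 (SE 0.19, limma adjusted p = 0.352). Those ranges did not overlap, and the deleted part of Hira is not named in the labels. Principal component 1, with 41.7% of the variance, put Hira-null replicate 3 at -65.6 and the other arrays at -1.95 to 32.0. Principal component 2, with 26.8%, ran from 5.12 to 40.7 in WT and from -42.7 to -2.19 in Hira-null arrays. All 6 ES cell markers examined passed the filter, and Pou5f1 read 10.91 to 11.58 over the 6 arrays.

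No esBAF subunit passed the test, and the values that stood apart were those of the chromosome 11 pair. Smarcd2 and Smarce1 read lower in all 3 Hira-null arrays than in any WT array, by 0.68 and 0.61 on the log2 scale. The other 8 subunits overlapped between the lines. In these bulk RNA samples, fewer cells with a transcript and less of it per cell cannot be told apart. Of the 12 probe sets, 0 passed with limma, and 4 were lower at an unadjusted p under 0.05, 1 of Smarcd2 and 3 of Smarce1. In the same fit 0.00398% of all probe sets passed. As genes, 2 of 10 were lower at an unadjusted p under 0.05 and 0 were higher, beside 6.29% lower and 4.17% higher among 15199 genes. The median over the 10 subunits was -0.12, and the median over all genes was -0.01.

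**Figure D1:**
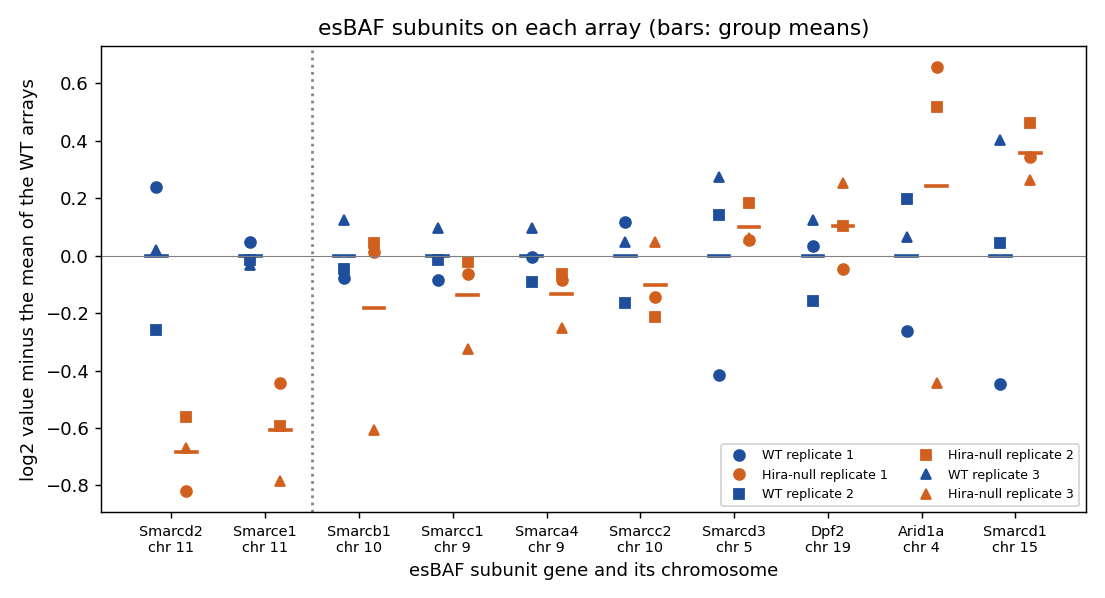
Log2 value of each esBAF subunit on each array minus the mean of the WT arrays (vertical axis), for the 10 genes with their chromosome (horizontal axis). Points are arrays, short bars are group means, and the brightest probe set stands for Smarce1. The Hira-null points of Smarcd2 and Smarce1 lie below all WT points, and those of the other 8 genes overlap with WT.

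The interchangeable Smarcd subunits, which bridge the complex to transcription factors, contained the member with the largest difference. Smarcd2 read 8.21, 7.71 and 7.99 on the WT arrays against 7.15, 7.41 and 7.30 on the Hira-null arrays. All 3 WT arrays were thus above all 3 Hira-null arrays, with means of 7.97 ± 0.25 and 7.29 ± 0.13. The difference was -0.68 (SE 0.16, 95% interval -1.07 to -0.29), or 1.61-fold lower, and did not pass (limma adjusted p = 0.261, unadjusted p = 0.00435). Groups that did not overlap were found for 9.55% of all genes with Hira-null lower and for 7.8% with Hira-null higher.

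Smarcd1, the Smarcd paralog of the ES cell complex, read 8.40, 8.89 and 9.25 on the WT arrays against 9.19, 9.31 and 9.11 on the Hira-null arrays. The low value is WT replicate 1, and the groups overlapped because WT replicate 3 lay among the Hira-null arrays. The difference of 0.36 (SE 0.22, 95% interval -0.17 to 0.88) did not pass (limma adjusted p = 0.662), and it was 0.13 without WT replicate 1 and 0.56 without WT replicate 3. Smarcd3, best known from heart development, read 5.10, 5.66 and 5.79 on the WT arrays against 5.57, 5.70 and 5.58 on the Hira-null arrays. Its difference was 0.10 (SE 0.20, 95% interval -0.36 to 0.56), again with WT replicate 1 lowest, and it was -0.11 without that array, 0.24 without WT replicate 3, 0.17 without WT replicate 2 and 0.06 without Hira-null replicate 2.

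The values of Smarcd1 and Smarcd2 were also set against each other within each array. The Smarcd1 value minus the Smarcd2 value, taken as a deviation from its mean over the arrays, was -1.21, -0.22 and -0.14 on the WT arrays against 0.64, 0.50 and 0.41 on the Hira-null arrays, without overlap. The log2 difference between the paralogs was 1.04 larger in Hira-null arrays, and 0.70 larger without WT replicate 1. For Smarcd3 minus Smarcd2 it was 0.78 larger, but 0.46 larger without WT replicate 1, and for Smarcd1 minus Smarcd3 it was 0.26 larger, both without overlap. Of these paralogs only Smarcd2 lies on chromosome 11, whose genes had a median difference of -0.24, and the part of that shift here was not tested. No share without overlap was computed over other gene pairs. These pairs were viewed with the values known and carry no test.

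The upstream sequences of this paralog pair are shown because Smarcd2 read lower and Smarcd1 did not. They are the 250 bases before an annotated start site, from RefSeq (GRCm38.p6), printed 5′ to 3′ on the strand of the gene. Capitals mark the GC box GGGCGG, the CCAAT box and the TATA sequence TATAAA, each searched on both strands. The Smarcd2 window is chr11:106267633-106267882 on the minus strand, and the Smarcd1 window is chr15:99702037-99702286 on the plus strand.
Smarcd2: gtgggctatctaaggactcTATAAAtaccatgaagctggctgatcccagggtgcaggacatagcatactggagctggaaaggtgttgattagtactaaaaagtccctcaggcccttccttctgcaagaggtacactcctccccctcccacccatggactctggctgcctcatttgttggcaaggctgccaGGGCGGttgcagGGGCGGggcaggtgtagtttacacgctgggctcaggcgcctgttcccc
Smarcd1: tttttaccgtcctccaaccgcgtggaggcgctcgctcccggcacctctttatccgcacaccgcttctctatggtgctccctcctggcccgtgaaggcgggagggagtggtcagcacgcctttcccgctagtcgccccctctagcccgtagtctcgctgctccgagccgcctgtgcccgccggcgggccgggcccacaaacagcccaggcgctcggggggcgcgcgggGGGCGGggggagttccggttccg
The Smarcd2 window held 4 CpG dinucleotides, 2 GC boxes and 1 TATAAA, and the Smarcd1 window 29 CpG dinucleotides and 1 GC box. The start site of the Smarcd2 window lies 5366 bases inside the outer end of the gene, so it is not at the outermost start of the gene. Inner start sites also occurred for Smarcd3 (window end 24602252, gene end 24624456) and for an Arid1a window (window end 133754235, gene end 133756769). Entries existed for 9 of the 10 subunits, all but Smarce1, with 10 windows in total. The 9 windows of the other subunits held 17 to 40 CpG dinucleotides, and the median of 32841 windows of this length was 6. The GC box was found in 8 of the 10 member windows and in 32.8% of all windows, CCAAT in 1 member window (Dpf2) and in 33.9% of all, and TATAAA in the Smarcd2 window and in 12.4% of all. No overlapping matches of different motifs were present in the windows printed.

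Smarce1 encodes the subunit with a high mobility group DNA-binding domain. Its brightest probe set, 10390768, read 9.46, 9.40 and 9.38 on the WT arrays against 8.97, 8.82 and 8.63 on the Hira-null arrays. WT arrays lay close together and above every Hira-null array, at 9.41 ± 0.04 against 8.81 ± 0.17. The difference was -0.61 (SE 0.13, 95% interval -0.92 to -0.29), or 1.52-fold lower, and it did not pass (limma adjusted p = 0.234, unadjusted p = 0.00267).

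The remaining Smarce1 probe sets showed differences of like size. Probe set 10527528 differed by -0.66 and probe set 10578391 by -0.59, both without overlap (limma adjusted p = 0.234 each). With each probe set taken as a deviation from its own mean over the 6 arrays, the 3 lay within 0.022 to 0.058 of each other in any array. All 20 named probe sets nearest in identifier lie on chromosome 11 for 10390768, on chromosome 5 for 10527528 and on chromosome 8 for 10578391. The gene table lists a pseudogene, Smarce1-ps1, at chr8:41657514-41658670, and the 809 chromosome 8 genes had a median difference of -0.27. The nearest named identifiers around 10578391 belong to Zfp353-ps, at chr8:42081329-42083312, and Triml1, at chr8:43129806-43180494. Smarce1-ps1 lies outside the stretch between these genes. The probes themselves were not analysed here and copies of Smarce1 were not told apart, so the 3 probe sets count as 1 gene here.

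**Figure D2:**
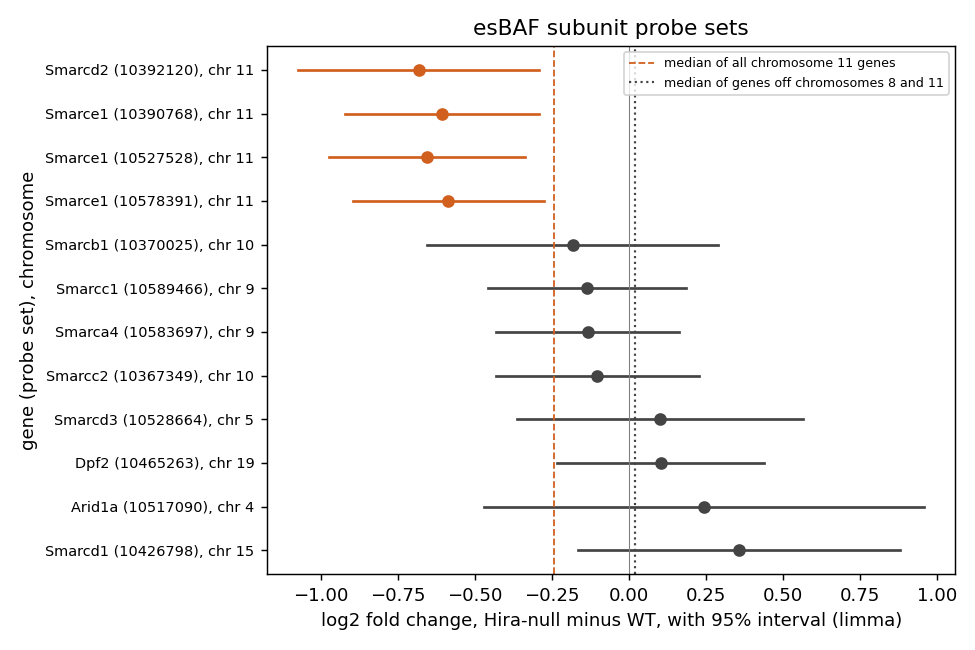
Log2 fold change, Hira-null minus WT, of the 12 member probe sets (points) with 95% intervals from limma (lines), with gene, probe set and chromosome of the gene on the vertical axis. The 4 chromosome 11 rows lie between -0.68 and -0.59. The dashed line at -0.24 is the median of all chromosome 11 genes, and the dotted line at 0.02 that of genes off chromosomes 8 and 11.

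Smarca4, the ATPase that drives the complex, read 9.13, 9.04 and 9.23 on the WT arrays against 9.05, 9.07 and 8.88 on the Hira-null arrays. The ranges overlapped, with Hira-null replicate 3 lowest, and the difference was -0.13 (SE 0.13, 95% interval -0.43 to 0.16, limma adjusted p = 0.807). It ran from -0.18 to -0.07 with 1 array left out, and was smallest without Hira-null replicate 3. Smarcc1, a core scaffold subunit of the ES cell complex, read 9.5, 9.57 and 9.68 on the WT arrays against 9.52, 9.56 and 9.26 on the Hira-null arrays. It differed by -0.14 (SE 0.14, 95% interval -0.46 to 0.19), and Hira-null replicate 3 was again the lowest array. Without that array the difference was -0.04.

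Smarcc2, the scaffold paralog of differentiated cells, read 6.74, 6.46 and 6.67 on the WT arrays against 6.48, 6.41 and 6.67 on the Hira-null arrays. The ranges overlapped almost fully, and the difference was -0.10 (SE 0.14, 95% interval -0.43 to 0.23). With 1 array left out it ran from -0.19 (WT replicate 2) to -0.05 (WT replicate 1). The log2 difference between Smarcc1 and Smarcc2 differed by -0.03 between Hira-null and WT arrays, with overlap.

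Smarcb1, the core subunit lost in rhabdoid tumours, read 8.88, 8.91 and 9.08 on the WT arrays against 8.97, 9.0 and 8.35 on the Hira-null arrays. Only Hira-null replicate 3 was below WT, and the difference of -0.18 (SE 0.20, 95% interval -0.66 to 0.29) was 0.028 without that array. It was -0.12 without WT replicate 3, -0.28 without Hira-null replicate 1 and -0.30 without Hira-null replicate 2. Arid1a, the large DNA-binding subunit that defines canonical BAF, read 8.45, 8.91 and 8.78 on the WT arrays against 9.37, 9.23 and 8.27 on the Hira-null arrays. Hira-null replicates 1 and 2 were above every WT array and replicate 3 below every one. The difference was 0.24 (SE 0.30, 95% interval -0.47 to 0.96, limma adjusted p = 0.873), and 0.59 without Hira-null replicate 3 (SE 0.17, limma adjusted p = 0.387). It was 0.04 without Hira-null replicate 1, 0.11 without Hira-null replicate 2 and 0.11 without WT replicate 1.

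Dpf2, a subunit whose PHD fingers bind modified histone tails, read 9.03, 8.84 and 9.12 on the WT arrays against 8.95, 9.10 and 9.25 on the Hira-null arrays. The ranges overlapped, and the difference was 0.10 (SE 0.14, 95% interval -0.23 to 0.44). It was 0.025 without WT replicate 2, 0.028 without Hira-null replicate 3, 0.17 without WT replicate 3 and 0.18 without Hira-null replicate 1. None of the 8 subunits off chromosome 11 passed with limma, and 0 had an unadjusted p under 0.05. Their 95% intervals reached no lower than -0.66, the bound of Smarcb1. A difference of the size of the chromosome 11 median, -0.24, lay within 6 of the 8 intervals.

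Single arrays set much of the spread among these 8 subunits. Hira-null replicate 3 was the lowest array for 4 of them (Smarca4, Smarcc1, Smarcb1 and Arid1a), and over all genes it was lowest for 26.0% and highest for 24.6%. WT replicate 3 was the highest array for 4 of them (Smarca4, Smarcc1, Smarcb1 and Smarcd3), and over all genes it was highest for 12.2%. In Hira-null replicate 3 the median deviation of the 6 ES cell markers was -0.42, against -0.06 to 0.21 in the others. Utf1 read 9.27 there against 10.07 to 10.67, and Sox2 read 9.44 against 10.09 to 10.41. Nanog (10.7) and Zfp42 (8.98) were also lowest there, while Pou5f1 (11.35) and Dppa5a (12.15) lay within the range of the other arrays. The 4 neural markers had a median deviation of -0.95 there, though Sox1 read 6.68, within the 6.39 to 6.84 of the other arrays. Their part in these subunits' values was not tested.

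WT replicate 1 was lowest for Smarcd1 and Smarcd3 and highest for Smarcd2, Smarce1 and Smarcc2. Over all genes it was lowest for 16.1% and highest for 19.6%. The summed level of the 5 primitive endoderm markers was highest there, at 9.02 on the log2 scale against 8.31 and 8.39 in the other WT arrays and 7.87 to 8.30 in Hira-null arrays. This sum did not overlap between the lines, as with Smarcd2 and Smarce1. The margin was narrow, from 8.301 (highest Hira-null array) to 8.313 (lowest WT array). All 5 markers had differences below 0, with a median of -0.23, and Gata4, Sox17 and Sox7 overlapped. Gata6 (-0.55) and Dab2 (-0.83) were lower at an unadjusted p under 0.05 without overlap, and none passed with limma (adjusted p from 0.394 to 0.976). The sum of the 5 fibroblast markers was 8.12 to 8.86 in WT, again highest in replicate 1, and 7.93 to 8.73 in Hira-null arrays. Its members had a median difference of -0.39, with Thy1 at 0.76, Col1a2 at -0.72 and Twist2 at -0.40, each without overlap. No marker of these lists was at 0, which says nothing of expression, since the lowest value of all probe sets was 1.14. Sums of 4 neural markers were 8.52 to 8.85 in WT and 7.83 to 8.81 in Hira-null arrays. These overlapped, but 2 of the 4 were lower at an unadjusted p under 0.05, Pax6 at -1.21 without overlap and Nes at -0.87 with overlap, and the median difference was -0.53. Tubb3 was at -0.18 and Sox1 at 0.20, both with overlap. None of the 4 passed with limma (adjusted p from 0.220 to 0.951). Of 3 trophectoderm markers 2 passed the filter (all but Elf5), and sums over all 3, Elf5 included, were 5.84 to 6.39 in WT and 6.0 to 6.46 in Hira-null arrays. Of 3 mesoderm markers 2 were matched, with sums of 5.23 to 5.45 in WT and 5.21 to 5.57 in Hira-null arrays. With WT replicate 1 and Hira-null replicate 3 both left out, Smarcd2 stood at -0.57 and Smarce1 at -0.50 (limma adjusted p = 0.405 and 0.372). The part of these marker lists in the values of Smarcd2 and Smarce1 was not tested.

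The contrast between the chromosome 11 subunits and the rest was seen on every array. The mean deviation of Smarcd2 and Smarce1 from their means over the 6 arrays was 0.47, 0.19 and 0.32 on the WT arrays against -0.31, -0.25 and -0.40 on the Hira-null arrays. For the other 8 subunits it was -0.16, -0.03 and 0.14 on the WT arrays against 0.08, 0.11 and -0.14 on the Hira-null arrays. The first set separates the lines, as it must because each of its 2 genes does, and the second does not. The chromosome 11 mean minus the mean of the rest was 0.62, 0.21 and 0.18 on the WT arrays against -0.39, -0.37 and -0.26 on the Hira-null arrays, a change of -0.68. With 2 genes on chromosome 11 and a contrast drawn up with results known, it is given as a description with no test.

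**Figure D3:**
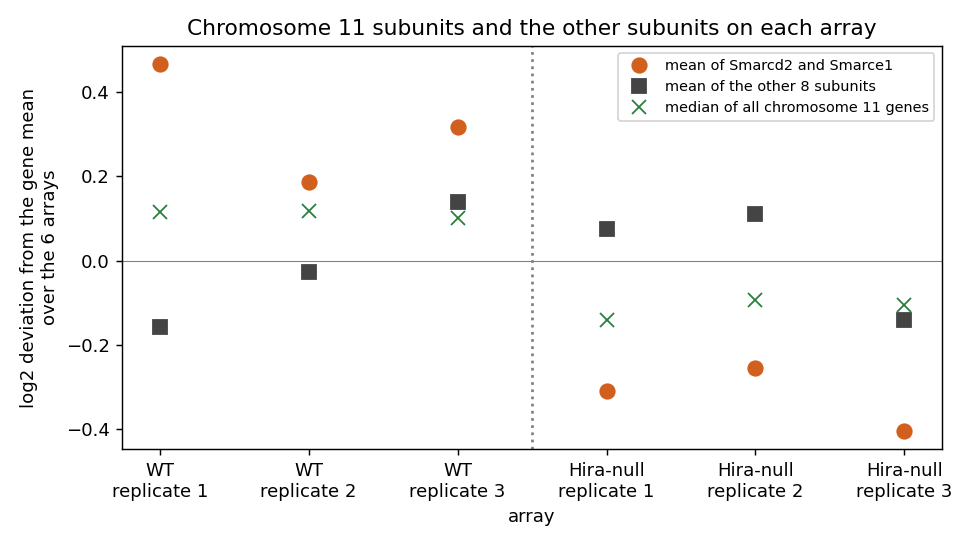
Deviation from the gene mean over the 6 arrays, on the log2 scale (vertical axis), for each array (horizontal axis): mean of Smarcd2 and Smarce1 (circles), mean of the other 8 subunits (squares) and median of all chromosome 11 genes (crosses). Circles run from 0.19 to 0.47 in WT and from -0.40 to -0.25 in Hira-null arrays, and the crosses have the same signs.

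Chromosome 11 as a whole had lower values in the Hira-null arrays, so the pair was set beside the genes around it. Among 1351 chromosome 11 genes the median was -0.24, and 27% were lower at an unadjusted p under 0.05. The corresponding share was 2.73% of 12983 genes off chromosomes 8 and 11, with a median of 0.02. Groups that did not overlap, with Hira-null lower, were found for 33.2% of chromosome 11 genes and 5.48% of genes off chromosomes 8 and 11.

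Smarcd2 and Smarce1 were in the lower part of the chromosome 11 values but within them. As low as Smarcd2 or lower were 97 chromosome 11 genes (7.18%), and as low as Smarce1 or lower were 167 (12.4%). Among genes off chromosomes 8 and 11, those shares were 0.994% and 1.43%. With all genes split by mean value into 3 classes of equal size, both belong to the highest class. In that class the 501 chromosome 11 genes had a median of -0.41, and 11.4% and 20.4% were as low as Smarcd2 and Smarce1. With each array centred on the median deviation of the gene's own chromosome, Smarcd2 read -0.46 (SE 0.16, limma adjusted p = 0.503) and Smarce1 -0.38 (SE 0.14, limma adjusted p = 0.506). In this setting the chromosome 11 pair minus the other subunits was -0.42. The centring used all kept genes of a chromosome, not the highest class alone, whose chromosome 11 median of -0.41 was lower.

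**Figure D4:**
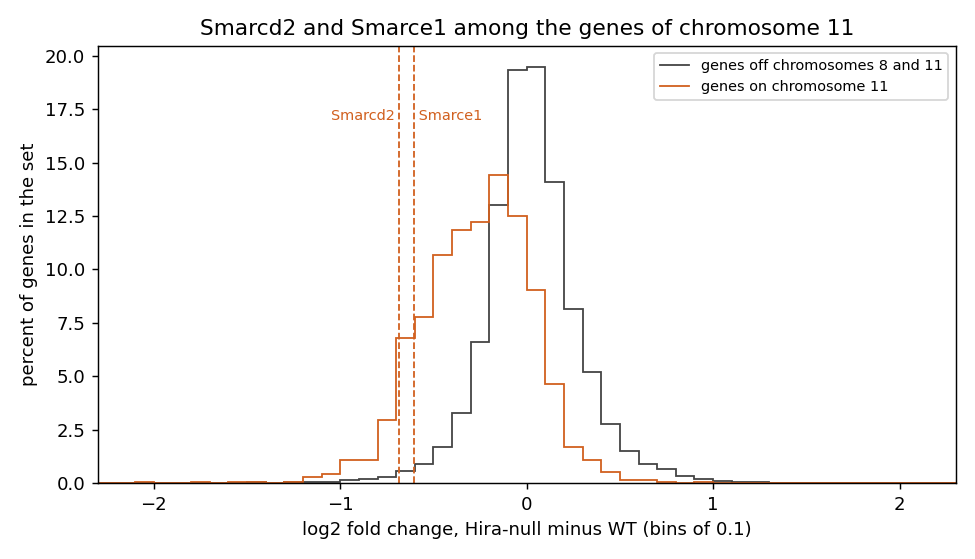
Percent of genes (vertical axis) by log2 fold change, Hira-null minus WT, in bins of 0.1 (horizontal axis), for genes on chromosome 11 and genes off chromosomes 8 and 11. Dashed lines mark Smarcd2 at -0.68 and Smarce1 at -0.61, which lie in the left part of the chromosome 11 distribution.

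The nearest measured genes on each side were chosen by position alone. Around Smarcd2 (chr11:106263171-106272998), all 6 neighbours had values below 0, with a median of -0.44. They were the RNA helicase gene Ddx42 at -0.47, the ribosomal RNA processing gene Ftsj3 at -0.55, the proteasome ATPase gene Psmc5 at -0.41, Tcam1 at -0.21, the growth hormone gene Gh at -0.14 and the B cell receptor gene Cd79b at -0.61. For Ddx42, Psmc5 and Cd79b the lines did not overlap, and none of the 6 passed with limma (adjusted p from 0.234 to 0.847).

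Around Smarce1 (chr11:99209047-99231017) the neighbours were less alike. The insulin-like growth factor binding protein gene Igfbp4 read -0.86 without overlap, Tns4 -0.40 and the chemokine receptor gene Ccr7 -0.20. On the other side the keratin genes Krt222, Krt27 and Krt10 read 0.16, -0.07 and -0.11. Thus 5 of 6 were below 0, and Smarce1 itself was lower than all but Igfbp4. None of these passed with limma (adjusted p from 0.616 to 0.949).

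Other subunits of the BAF family were examined from a list of 21 genes, all measured. None passed with limma, 1 was lower and 0 were higher at an unadjusted p under 0.05, and the median was -0.03. Brd7, a bromodomain subunit of the related PBAF complex on chromosome 8, was the lower one. It read 8.66, 8.51 and 8.77 on the WT arrays against 8.03, 8.10 and 8.0 on the Hira-null arrays, without overlap, a difference of -0.60 (SE 0.13, limma adjusted p = 0.234). Bcl11a, the chromosome 11 gene of the list, read -0.27 (SE 0.26) with overlap, and Bcl7c read -0.22 without overlap. Dpf1, of the neuronal complex, was at 0.33 and Arid1b, the alternative to Arid1a, at 0.17, both with overlap. The alternative ATPase gene Smarca2 had values of 3.73 to 4.18 around the filter value of 3.78, and differed by -0.03.

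The ISWI remodellers, which space nucleosomes, had 10 of 10 genes measured and a median of 0.09. None passed with limma, and 2 were lower and 2 higher at an unadjusted p under 0.05. The ATPase gene Smarca5, on chromosome 8, read -0.61 (SE 0.20) and Bptf, the chromosome 11 subunit gene of the NURF complex, -0.35 (SE 0.14), both without overlap. The paralog ATPase gene Smarca1, on chromosome X, read 0.84 (SE 0.19, limma adjusted p = 0.239) and Rsf1 0.33, also without overlap. Cecr2 was at 0.28 with overlap.

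The CHD and NuRD list had 18 of 18 genes measured, none past the test with limma, 1 lower and 1 higher at an unadjusted p under 0.05, and a median of -0.02. Chd7, an ATPase gene on chromosome 4 that is mutated in CHARGE syndrome, read -0.62 (SE 0.15, limma adjusted p = 0.257), and the methyl-CpG binding protein gene Mbd2 read 0.77 (SE 0.23). The deacetylase gene Hdac2 read 0.26, and none of these 3 overlapped between the lines. Gatad2a and Chd9 on chromosome 8 read -0.25 and -0.20, and Chd3 on chromosome 11 read -0.02.

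The INO80 and SRCAP list, of remodellers that exchange the histone variant H2A.Z, had 18 of 19 genes measured, and none lies on chromosome 8 or 11. None passed with limma, 1 was lower and 0 were higher at an unadjusted p under 0.05, and the median was -0.01. Actr6, an actin-related subunit gene of SRCAP, read 6.73, 6.98 and 6.79 on the WT arrays against 6.18, 5.93 and 5.35 on the Hira-null arrays. Its difference of -1.01 (SE 0.22, limma adjusted p = 0.234) was without overlap. Ino80d and Ino80c stood at 0.39 and 0.33, with overlap.

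Over these 4 lists, 7 of 67 measured genes lie on chromosomes 8 and 11. All 7 had values below 0, with a median of -0.27, and 3 were lower at an unadjusted p under 0.05. The 60 on other chromosomes had 27 below 0 and a median of 0.01, with 2 lower and 3 higher at that level. Among all genes, 82.9% on chromosome 8 and 82.5% on chromosome 11 were below 0, and 46.3% on the others. At an unadjusted p under 0.05, 234 of 809 genes on chromosome 8 and 365 of 1351 on chromosome 11 were lower. Of the 12983 genes on the others, 354 were lower and 617 higher at that level.

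**Figure D5:**
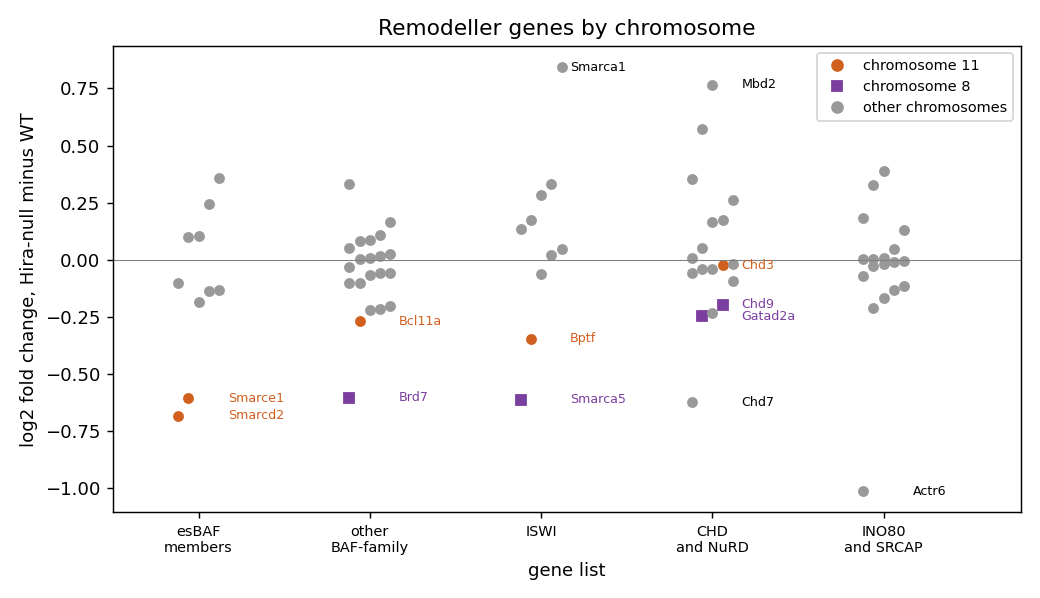
Log2 fold change, Hira-null minus WT (vertical axis), of the genes of 5 lists (horizontal axis), coloured by chromosome, each point 1 gene. The chromosome 8 and 11 genes run from -0.68 (Smarcd2) to -0.02 (Chd3), and genes of other chromosomes from -1.01 (Actr6) to 0.84 (Smarca1).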

How the data were processed

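Total RNA of 6 ES cell samples was hybridised to Mouse Gene 1.0 ST arrays, per the labels. The deposited table holds log2 values, already normalized by the authors with GCRMA, per the submitters' processing notes. Their scale follows from their range (1.14 to 14.03), and the build is not given in the sources used here. Such normalization would hide a change shared by most genes.

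The platform annotation gave 1 symbol to 21789 probe sets, updated through Entrez identifiers (GRCm38.p6, 21698 matched). Probe sets above 3.78, the 30th percentile, on at least 3 arrays were kept: 25142, standing for 15199 genes, each by its brightest probe set. Hira-null was compared with WT using limma 3.58.1 in R 4.3.3 (lmFit, eBayes, two-sided, threshold 0.05). The script was checked on simulated data. The median SE was 0.17, and the number of arrays limits the precision.

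Members, lists and contrasts were chosen with earlier results of these data known. Named from each remodeller list were the genes on chromosomes 8 and 11 and the 3 others with the smallest p, plus Smarca2, picked after its values were seen. Neighbours were chosen by position. Alternatives were other filters, scalings, variance models, a replicate block, left-out arrays and centring by chromosome.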

Additional observations from a re-analysis of the deposited data

How the results depend on the processing

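No member probe set passed under any of the 15 alternatives tried for that count, and Smarcd2 and Smarce1 were the members lower at an unadjusted p under 0.05 in all of them. Their log2 fold changes ran from -0.81 to -0.46 and from -0.69 to -0.38, with limma adjusted p of 0.174 to 0.604 and 0.135 to 0.604. Smarcd1 was higher at that level without WT replicate 3 (0.56), and Arid1a without Hira-null replicate 3 (0.59) and with that array and WT replicate 1 both left out. The chromosome 11 pair minus the other subunits ran from -0.76 to -0.53 with 1 array left out and was -0.42 after centring on the own chromosome. The median of the subunits ran from -0.16 to -0.01 with 1 array left out. With 1 array left out, Smarcb1 ran from -0.30 to 0.028 and Smarcd3 from -0.11 to 0.24. Smarcb1 changed sign without Hira-null replicate 3 (0.028), and Smarcd3 without WT replicate 1 (-0.11) and with both of these arrays left out (-0.09). Over all genes the fit called 1 probe set, 2 with the stricter filter and with median centring, 5 with arrayWeights, 0 with the replicate block, 0 with both arrays left out, and 0 to 41 with 1 array left out, 41 without Hira-null replicate 2. The causes were not tested. Replicate numbers did not pair the arrays: deviations of same-numbered arrays from the means of their lines correlated at -0.34, 0.17 and -0.10. Arrays of different number correlated from -0.41 (WT replicate 2 with Hira-null replicate 3) to 0.44 (WT replicate 1 with Hira-null replicate 3). WT replicate 2 and Hira-null replicate 1 correlated at 0.36. What such arrays share between the lines was not tested. With the replicate block Smarcd2 had an adjusted p of 0.500 and Smarce1 of 0.493 in limma.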
